A study of Mus musculus with 2 samples.

Results

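The insulin-like growth factor (IGF) axis was followed through the cells of the newborn mouse lens as 10 genes: the ligands *Igf1* and *Igf2*, the receptors *Igf1r*, *Igf2r* and *Insr*, and the binding proteins *Igfbp2*, *Igfbp3*, *Igfbp4*, *Igfbp5* and *Igfbp7*. The genes were taken by symbol from the 32285 genes of both matrices, and all 10 were found. The cells came from wild-type C57BL/6N pups at postnatal day 2 (P2), with no treatment and no other genotype. Each of 2 pools combined the lenses of 4 to 8 pups, which were cleaned of the ciliary body and the tunica vasculosa (the vessel network that feeds the newborn lens) before the capsule with its epithelial monolayer was peeled off and dissociated with trypsin and collagenase. Vessel cells in these libraries are therefore those that stayed with the capsule after cleaning. The pools are the replicates (n = 2), and cells of a pool are not.

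IGF-1 and IGF-2 are secreted peptides that bind the tyrosine kinase receptor encoded by *Igf1r*, while *Insr* encodes the insulin receptor. The *Igf2r* product has no kinase and carries IGF-2 and mannose 6-phosphate-tagged enzymes to lysosomes. Most IGF outside cells is held by binding proteins, which lengthen its life and control its access to receptors, and the *Igfbp7* product binds IGF weakly compared with the others. In the lens, IGF is known as a signal for epithelial proliferation and for fiber differentiation. The anterior epithelium has no vessels of its own, so ligand can reach it from the aqueous humor or from neighboring vessels.

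Cells were assigned by marker genes, counted as unique molecular identifiers (UMIs, 1 for each captured transcript), with none of the 10 genes among the markers. Of 18494 barcodes kept, 15174 were assigned to lens (8969 in pool 1 and 6205 in pool 2). Endothelial cells numbered 326 and 207, mural cells (the pericytes and smooth muscle cells of vessel walls) 114 and 153, and macrophages 21 and 23. The deposited matrices held 93839132 and 86033032 UMIs, and the median was 6166 and 7909 UMIs per lens cell but 3029 to 4194 in the other classes. The pools shared 27 barcode sequences.

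The labels were checked with 6 further markers for each class that were not used to assign cells, expressed as CPM, the count scaled to a common library total. The endothelial set (*Ctla2a*, *Kdr*, *Flt1*, *Tie1*, *Emcn*, *Plvap*) summed to 4845 and 5349 CPM in endothelial cells and to 3.62 and 3.22 CPM in lens cells. In mural cells the same set reached 415 and 439 CPM, 8.56% and 8.21% of the endothelial level, with *Emcn* at 139 and 153 CPM. The mural set (*Mgp*, *Serpine2*, *Ndufa4l2*, *Cspg4*, *Vtn*, *Des*) summed to 11068 and 13376 CPM in mural cells. A fibroblast set summed to 581 and 619 CPM in these mural cells, with the collagen *Col1a2* at 284 and 308 CPM. The macrophage set summed to 52398 and 64400 CPM in macrophages. Pigment cell and neural retina sets stayed at or below 4.26 and 1.61 CPM in lens cells, while the fibroblast set reached 95.7 and 103 CPM there, nearly all of it *Pdgfra*. One lens marker, *Six3*, went against its list, at 506 and 524 CPM in endothelial cells and 296 and 252 CPM in lens cells. Lens RNA was found in every other class: *Cryaa* plus *Cryab* stood at 2.18% and 2.06% of the lens level in endothelial cells, 4.16% and 4.55% in mural cells and 3.23% and 2.88% in macrophages. In mural cells the *Cryaa* and *Cryab* shares differed, at 2.28% and 6.00% in pool 1 and 2.58% and 6.17% in pool 2. These shares served as the reference for RNA carried over from lens cells. *Cryaa* and *Cryab* were also used to assign cells, and cells of the other classes had to hold under 1% of UMIs from them. The shares are thus limited by the assignment and are no independent measure of carried-over RNA.

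The binding protein genes gave the sharpest contrasts, so the sequences before 3 of their starts are shown: *Igfbp5*, which was high in lens cells, *Igfbp3*, which was high in endothelial cells, and *Igfbp7*, which was high in both and in mural cells. Each run is the 250 bases before the RefSeq start (GRCm38.p6, the mm10 build), read 5′ to 3′ on the minus strand, with each CG dinucleotide, the site of DNA methylation, in capitals.
Igfbp5 (chr1:72874866-72875115): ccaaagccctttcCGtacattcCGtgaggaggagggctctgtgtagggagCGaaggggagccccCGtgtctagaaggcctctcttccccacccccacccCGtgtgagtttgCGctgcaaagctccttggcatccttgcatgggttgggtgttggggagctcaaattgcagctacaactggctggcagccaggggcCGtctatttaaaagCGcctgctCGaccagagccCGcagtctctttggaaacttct
Igfbp3 (chr11:7213924-7214173): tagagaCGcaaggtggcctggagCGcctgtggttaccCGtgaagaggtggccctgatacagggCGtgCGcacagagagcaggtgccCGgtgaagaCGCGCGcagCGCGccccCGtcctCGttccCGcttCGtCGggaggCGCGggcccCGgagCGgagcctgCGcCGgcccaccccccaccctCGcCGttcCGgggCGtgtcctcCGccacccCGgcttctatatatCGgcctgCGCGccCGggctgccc
Igfbp7 (chr5:77408046-77408295): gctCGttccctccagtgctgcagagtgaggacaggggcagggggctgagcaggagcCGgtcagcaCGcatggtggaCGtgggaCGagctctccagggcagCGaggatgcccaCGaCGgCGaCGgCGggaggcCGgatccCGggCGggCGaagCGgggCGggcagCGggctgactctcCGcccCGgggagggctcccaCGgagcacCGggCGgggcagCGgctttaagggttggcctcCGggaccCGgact

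The *Igfbp5* window held 10 CG, against 32 for *Igfbp3* and 26 for *Igfbp7*, and the median over 32841 mouse promoter windows of this length was 6. At least 32 CG were present in 4.59% of those windows, at least 26 in 9.59% and at least 10 in 37.8%. *Igf1r* had the most of the 13 windows found for 9 of the 10 genes, with 42 (0.865% of all windows hold as many). A match to TATAA on either strand, present in 22.8% of all windows, was found only for *Igfbp4* among the 13, and the Sp1-type box GGGCGG, present in 32.7%, was found for *Igfbp7*, *Igf1r*, *Igf2r* and for some of the starts of *Igfbp2* and *Igf2*. These are descriptions of letters, and neither methylation nor factor binding was measured. *Igfbp5* (chromosome 1, 72857932 to 72874884, minus strand) and *Igfbp2* (72824503 to 72852474, plus strand) are neighbors, 5457 bases apart. *Igfbp3* lies at 7206086 to 7213923 on the minus strand of chromosome 11, and *Igfbp7* at 77349240 to 77408041 on the minus strand of chromosome 5.

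**Figure D1:**
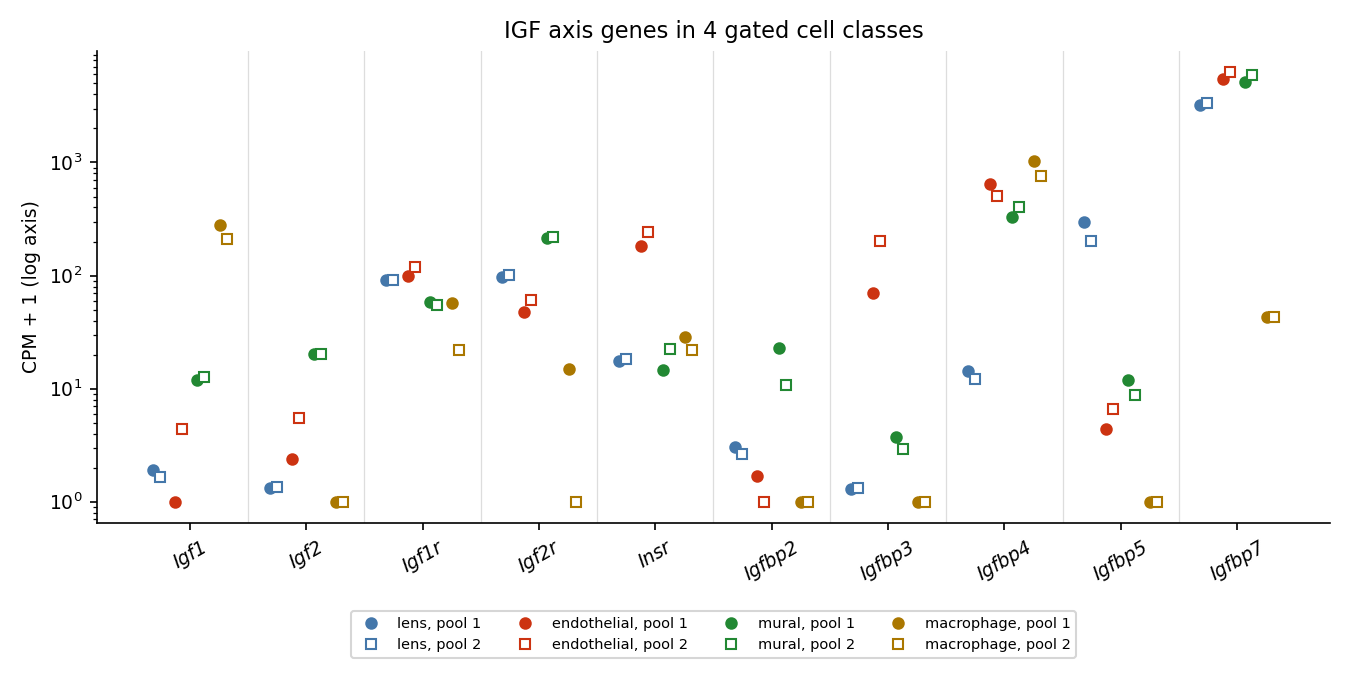
CPM plus 1 on a log axis for the 10 genes in cells assigned to lens, endothelium, mural cells and macrophages, with a filled circle for pool 1 and an open square for pool 2; a point at the bottom is a class with no UMI. *Igf1* is highest in macrophages (278 and 210 CPM), *Insr* and *Igfbp3* in endothelial cells, *Igf2r* in mural cells and *Igfbp5* in lens cells (297 and 199 CPM).

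Ligand transcripts were scarce in the lens epithelium. *Igf1* had 57 and 34 UMIs over all lens cells, or 0.910 and 0.643 CPM (95% exact Poisson intervals 0.689 to 1.18 and 0.446 to 0.899 CPM, which cover counting error only). Macrophages had 278 and 210 CPM from 20 UMIs in each pool, and 42.9% and 43.5% of them had at least 1 UMI against 0.624% and 0.532% of lens cells. Both pools placed every other class far below macrophages. The lens level was 0.327% and 0.306% of the macrophage level, while the macrophage marker set in lens cells was at 0.0590% and 0.0668% of its macrophage level, with single markers from 0.00145% to 1.24%. Mural cells had 10.9 and 11.6 CPM of *Igf1* (4 and 6 UMIs), 3.92% and 5.52% of the macrophage level, where the macrophage marker set stood at 0.323% and 0.538%. In endothelial cells *Igf1* had 0 and 3 UMIs.

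*Igf2*, the fetal ligand expressed from the paternal allele, was lower still in the lens, at 0.335 and 0.341 CPM from 21 and 18 UMIs. Mural cells had 19.1 and 19.3 CPM from 7 and 10 UMIs, and endothelial cells 1.37 and 4.54 CPM from 2 and 4 UMIs. Mural cells were above lens and endothelial cells in both pools. No *Igf2* UMI was seen in macrophages, where 3 UMIs over both pools would amount to 17.97 CPM, so a level like that of mural cells could hardly have been told from 0. The antisense gene *Igf2os* overlaps *Igf2*, and how reads were assigned by strand is that of the authors' counting.

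The receptors were spread among the classes in different orders. *Igf1r*, which carries the growth signal of both ligands, was at 89.5 and 90.9 CPM in lens cells and 97.3 and 118 CPM in endothelial cells. Mural cells had 57.3 and 54.2 CPM and macrophages 55.7 and 21.0 CPM, the latter from 4 and 2 UMIs. Lens and endothelial cells were the upper pair and did not differ by the test given below. *Igf2r*, the clearance receptor, was highest in mural cells, at 213 and 217 CPM, with lens cells at 97.1 and 99.4 CPM and endothelial cells at 46.6 and 60.1 CPM, and no overlap between classes. A single *Igf2r* UMI was seen in macrophages, and the lens level was 16.4 times higher (95% counting interval 2.94 to 647). The antisense transcript *Airn* overlaps *Igf2r*.

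*Insr* was the most uneven receptor. Endothelial cells had 180 and 243 CPM, lens cells 16.7 and 17.1 CPM, mural cells 13.6 and 21.3 CPM and macrophages 27.8 and 21.0 CPM. Endothelial cells stood above all others in both pools, and mural cells spanned the lens levels, while the macrophage values, from 2 UMIs in each pool, lay above both lens values. The mural level was 7.57% and 8.77% of the endothelial level. The 6 endothelial markers stood in mural cells at 0.160% to 29.4% of their endothelial level in pool 1 and 0.190% to 30.8% in pool 2, so no single share describes RNA from endothelial cells there, and its part in the mural *Insr* value was not tested. At an equal depth of 1500 UMIs per cell, 24.6% and 36.3% of endothelial cells had an *Insr* UMI against 2.30% and 2.67% of lens cells. Without thinning the shares were 44.8% and 56.0% against 10.6% and 12.7%.

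Among the binding proteins, *Igfbp7* was the most abundant, with 1 UMI counted per captured 3′ end whatever the gene length. It was at 3218 and 3328 CPM in lens cells, 5417 and 6282 CPM in endothelial cells and 5155 and 5968 CPM in mural cells. It made up 91.1% and 94.0% of the UMIs of the 5 binding protein genes in lens cells. Macrophages had only 41.7 and 42.1 CPM (3 and 4 UMIs), 1.30% and 1.26% of the lens level and below the share of lens crystallins in the same cells. *Igfbp7* was thus seen in nearly every lens, endothelial and mural cell (99.0% to 100% with a UMI) and in 9.52% and 17.4% of macrophages.

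*Igfbp5* was highest in lens cells. Lens cells had 297 and 199 CPM, with pool 1 the higher by 1.49 times, whereas endothelial cells had 3.43 and 5.67 CPM, mural cells 10.9 and 7.74 CPM and macrophages no UMI. The endothelial level was 1.15% and 2.85% of the lens level and the mural level 3.67% and 3.89%. The mural values lay between the shares of the 2 lens crystallins in the same cells, and the endothelial values lay below them in pool 1 and above them in pool 2. The part of carried-over lens RNA in the mural and endothelial values was not tested. With a floor of 3 UMIs over both pools, *Igfbp5* was at least 14.0-fold lower in macrophages than in lens cells.

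*Igfbp3* was highest in endothelial cells and differed clearly between pools. Endothelial cells had 69.2 and 199.6 CPM, lens cells 0.303 and 0.322 CPM, mural cells 2.73 and 1.93 CPM (1 UMI in each pool) and macrophages no UMI. Endothelial cells stood above every other class in both pools, but pool 2 was 2.88 times pool 1. Macrophages could not be ranked below lens or mural cells, since 3 UMIs over both pools would amount to 17.97 CPM. A minority of endothelial cells carried it: 18.4% and 33.8% had a UMI, with at most 7 UMIs in 1 cell of pool 1 and 19 in pool 2. The endothelial cells of the pools also differed in proliferation markers, which summed to 1403 CPM in pool 1 and 289 CPM in pool 2; the part of this in the *Igfbp3* difference was not tested. Endothelial cells exceeded mural cells by 52.3 times (95% counting interval 14.3 to 434).

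*Igfbp4* marked all of the non-lens classes. Macrophages had 1029.6 and 757 CPM, endothelial cells 649 and 500.3 CPM, mural cells 327 and 400.5 CPM and lens cells 13.4 and 11.2 CPM. The order was the same in both pools and no class overlapped its neighbor. The lens level was 2.06% and 2.24% of the endothelial level, where no endothelial marker exceeded 0.110% in lens cells. It was 1.30% and 1.48% of the macrophage level. The median macrophage marker in lens cells was at 0.0058% and 0.0050% of its macrophage level, and the marker sum at 0.0590% and 0.0668%. The highest single marker reached 1.20% and 1.24%. The part of carried-over RNA in the lens *Igfbp4* level was not tested. At 1500 UMIs per cell, 83.3% and 70.0% of macrophages, 56.1% and 46.6% of endothelial cells, 39.1% and 42.5% of mural cells and 2.06% and 1.32% of lens cells had an *Igfbp4* UMI.

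*Igfbp2* was rare everywhere. Mural cells had 21.8 and 9.67 CPM from 8 and 5 UMIs, and lens cells 2.06 and 1.65 CPM from 129 and 87 UMIs. Over both pools the mural level was 7.87 times the lens level (95% counting interval 4.12 to 13.7). It did not pass the filter on low counts among the cell classes and was not tested there.

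**Figure D2:**
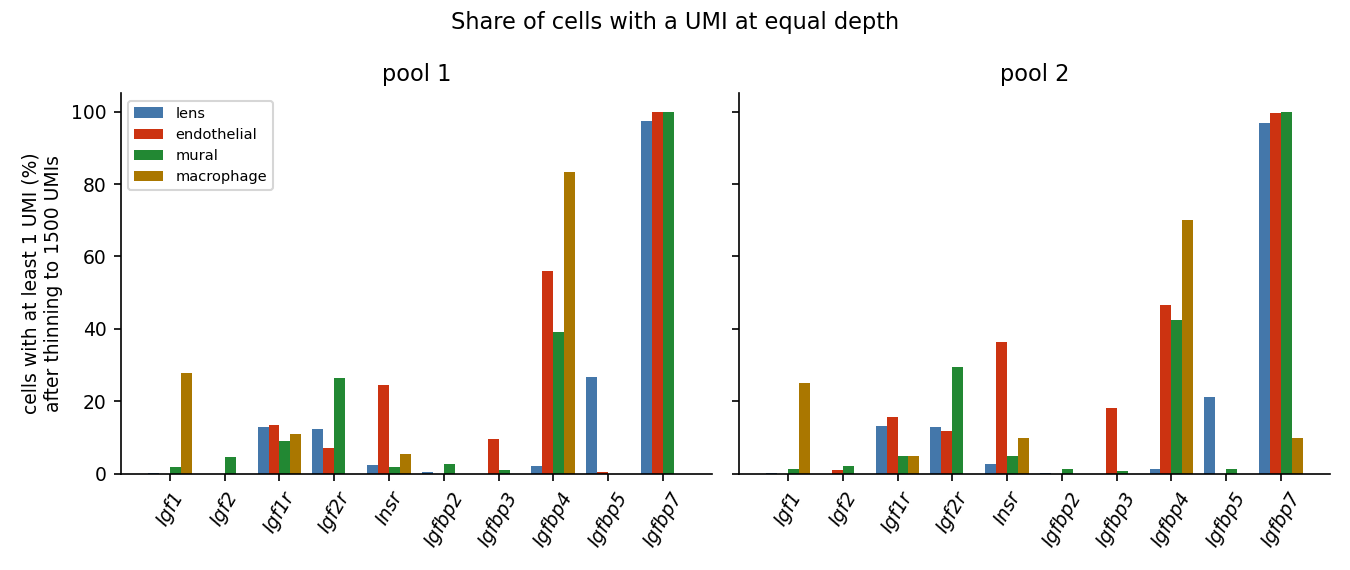
Percent of cells with at least 1 UMI of each gene after every cell was thinned to 1500 UMIs, in pool 1 (left) and pool 2 (right); bars start at 0 and 220 shallower cells are left out. *Igfbp7* is found in over 96% of lens, endothelial and mural cells in both pools, while *Igf1* is found in 27.8% and 25% of macrophages.

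Differences between classes were tested with edgeR on the UMI sums of each class in each pool, with pool as a block and Benjamini-Hochberg adjustment over all 9280 genes that passed the filter; a gene was called at an adjusted p under 0.05. Each SE was derived as the absolute log2 fold change divided by the square root of the test's F statistic. It is not a directly estimated SE. Fewer transcripts per cell and a smaller share of the cell's RNA cannot be told apart in CPM. The scaling (TMM, which assumes that most genes do not change) also matters, since totals alone would raise every value by 0.29 on the log2 scale for endothelial against lens, 0.23 for mural against lens and 0.30 for macrophage against lens.

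Against lens cells, endothelial cells had 5 genes of the axis called higher and 2 lower of 9 tested, where 30.2% of all genes tested were called higher and 32.9% lower. The median log2 fold change was 0.54 over the 9 and -0.08 over all genes. The higher genes were *Igfbp3* (log2 fold change 8.29 ± 0.31 SE, adjusted p = 4.48e-25), *Igfbp4* (5.25 ± 0.13, adjusted p = 8.98e-32), *Insr* (3.33 ± 0.14, adjusted p = 6.65e-24), *Igf2* and *Igfbp7* (0.54 ± 0.09, adjusted p = 2.07e-06). The call on *Igf2* (2.62 ± 0.89, adjusted p = 0.0101) rests on 6 UMIs and was lost without the upper limit on genes and UMIs per cell (log2 fold change 1.40, adjusted p = 0.119) and without the filter on low counts (2.58, adjusted p = 0.0600). The lower genes were *Igfbp5* (-6.21 ± 0.25, adjusted p = 6.65e-24) and *Igf2r* (-1.20 ± 0.16, adjusted p = 2.14e-08). *Igf1r* (-0.06 ± 0.14, adjusted p = 0.752) was not called.

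Against the same lens sums, mural cells had 5 genes called higher and 2 lower of 9 tested, against 25.1% and 25.2% of all genes. *Igf2* (5.54 ± 0.67, adjusted p = 3.39e-09), *Igfbp4* (4.69 ± 0.16, adjusted p = 6.30e-27) and *Igf1* (3.64 ± 0.77, adjusted p = 1.02e-04) had the largest values, and *Igf2r* (0.89 ± 0.15) and *Igfbp7* (0.53 ± 0.09) were also higher. *Igfbp5* (-4.96 ± 0.30) and *Igf1r* (-0.94 ± 0.22, adjusted p = 4.01e-04) were lower. *Insr* (-0.16 ± 0.39, adjusted p = 0.766) was not called. For *Igfbp3*, with 2 mural UMIs, the mural level was 7.26 times the lens level with a 95% counting interval of 0.847 to 28.2.

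Between the vessel classes, 3 genes of the axis were higher in mural cells and 4 in endothelial cells, where 17.6% and 16.2% of all genes were called in those directions. Mural cells were higher in *Igf2r* (2.10 ± 0.20, adjusted p = 1.25e-11), *Igf2* (2.92 ± 0.74) and *Igf1*, for which the ratio over both pools was 8.83 (95% counting interval 2.27 to 49.9, from 10 and 3 UMIs). Endothelial cells were higher in *Igfbp3*, in *Insr* (-3.48 ± 0.29, adjusted p = 3.06e-13), in *Igf1r* (-0.88 ± 0.24, adjusted p = 0.00354) and in *Igfbp4* (-0.57 ± 0.14, adjusted p = 0.00102). The *Igfbp4* call was lost at 1500 UMIs per cell (-0.43, adjusted p = 0.0850). *Igfbp7* (-0.01 ± 0.09, adjusted p = 0.955) was not called.

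Macrophages, with 44 cells in all, had 2 genes called higher and 4 lower than lens cells of 9 tested, against 15.2% and 20% of all genes. *Igf1* (7.97 ± 0.51, adjusted p = 7.89e-17) and *Igfbp4* (5.87 ± 0.22, adjusted p = 1.24e-24) were the higher genes. *Igfbp7* (-6.59 ± 0.25, adjusted p = 1.24e-24), *Igfbp5*, *Igf2r* and *Igf1r* (-1.62 ± 0.50, adjusted p = 0.0104) were the lower ones. The *Igf1r* call, from 6 macrophage UMIs, was lost at equal depth (log2 fold change -1.33, adjusted p = 0.170) and without TMM scaling (-1.32, adjusted p = 0.0629).

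**Figure D3:**
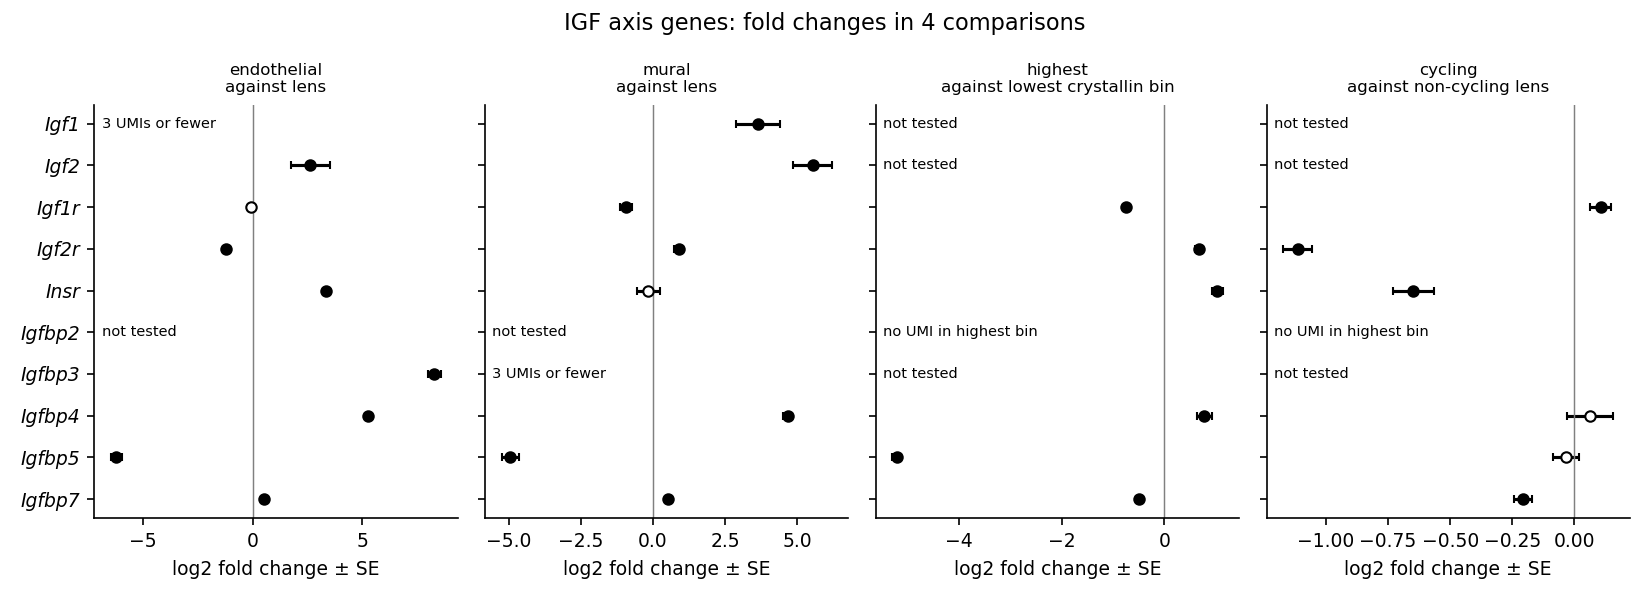
Log2 fold change ± SE (SE derived from the edgeR F statistic, 2 pools) of the 10 genes in 4 comparisons, each on its own axis. A filled point has an adjusted p under 0.05, an open point does not, and bars smaller than the point are hidden. No point is drawn for a class with 3 UMIs or fewer. *Igfbp5* lies furthest to the left in both vessel comparisons (-6.21 and -4.96) and *Igfbp3* furthest to the right in endothelial cells (8.29).

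Within the lens, non-cycling cells of each pool were ranked by the share of UMIs from 14 beta and gamma crystallins, which rise as epithelial cells become fiber cells, and cut into 5 equal bins of 911 to 1417 cells, from bin 1 (lowest) to bin 5 (highest). The 6 differentiation markers (*Cdkn1c*, *Mip*, *Lim2*, *Bfsp1*, *Prox1*, *Maf*) summed to 1854 and 1747 CPM in the lowest bin and 11465 and 12033 CPM in the highest. Cells of the highest bin also held more UMIs (medians of 10995 and 13030 against 5597 and 7015), and crystallins filled a larger part of them. Totals alone would lower all values of the highest bin by 0.57 on the log2 scale relative to the TMM-scaled ones, so both are given.

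*Igfbp5* fell steeply along this order. Its level in pool 1 was 929, 433, 323, 207 and 16.9 CPM from the lowest to the highest bin, and in pool 2 it was 640, 279, 214, 111 and 11.96 CPM. Each bin was below the one before it in both pools, and pool 1 was above pool 2 throughout. In the lowest bin 79.5% and 75.4% of cells had an *Igfbp5* UMI, and in the highest 13.9% and 13.1%, although the latter cells held more UMIs. The scaled log2 fold change of the highest against the lowest bin was -5.20 ± 0.09 (edgeR, adjusted p = 3.22e-21), and in unscaled CPM it was -5.78 and -5.74.

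*Igfbp2* moved the same way at a far lower level. It had 6.099 and 4.70 CPM in the lowest bin (49 and 30 UMIs) and no UMI in the highest, where it was at least 49.7-fold lower. *Igf1* had 22 and 7 UMIs in the lowest bin and 1 in each pool in the highest, a ratio of 27.4 (95% counting interval 6.93 to 237), and was too rare to be tested. The macrophage marker set, which includes *Apoe*, summed to 56.1 and 94.9 CPM in the lowest bin and 8.81 and 10.1 CPM in the highest. The macrophage genes used to assign cells summed to 1.12 and 1.57 CPM in the lowest bin and 1.27 and 1.05 CPM in the highest. A lens cell could hold at most 1 UMI of that list. The part of macrophage RNA in the *Igf1* values was not tested.

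*Igf1r* also declined, from 121 and 120 CPM in the lowest bin through 107 and 110, 99.0 and 96.8, and 89.0 and 87.6 CPM to 47.8 and 49.2 CPM in the highest. The pools gave the same order of bins and nearly the same levels. The scaled log2 fold change was -0.74 ± 0.06 (edgeR, adjusted p = 5.26e-10), and the unscaled values were -1.34 and -1.28. *Igfbp7* went from 4864 and 4855 CPM to 2362 and 2279 CPM, with a scaled log2 fold change of -0.50 ± 0.05 (edgeR, adjusted p = 9.66e-09) and unscaled values of -1.04 and -1.09.

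*Igf2r* was highest in the middle of the order. It rose from 78.9 and 90.4 CPM in the lowest bin to 142 and 136 CPM in bin 3 and 133 and 158 CPM in bin 4, and was at 89.5 and 90.1 CPM in the highest. Its scaled log2 fold change between the ends was 0.66 ± 0.08 (edgeR, adjusted p = 1.10e-07), but in unscaled CPM the ends differed by 0.18 in pool 1 and by -0.005 in pool 2, and the call was lost without scaling (0.09, adjusted p = 0.258). *Igfbp4* had the same shape, with 10.3 and 7.68 CPM at the lowest bin, 17.7 and 16.1 CPM at bin 4 and 11.3 and 9.52 CPM at the highest. Its call (0.78 ± 0.15, adjusted p = 1.52e-04) was lost without scaling, with stricter cell assignment and at equal depth, and the log2 fold change was -0.0023 when 10 bins replaced 5. *Insr* stayed at 15.3 to 18.8 CPM over the lower 4 bins and reached 22.0 and 23.8 CPM in the highest (1.02 ± 0.10, adjusted p = 1.77e-08; unscaled 0.44 and 0.47).

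Between the highest and lowest bins, 3 genes of the axis were thus called higher and 4 lower of 7 tested, where 30.7% and 31.7% of all 12614 genes tested were called. *Igf2* and *Igfbp3* were not tested, with at most 8 UMIs in any bin.

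**Figure D4:**
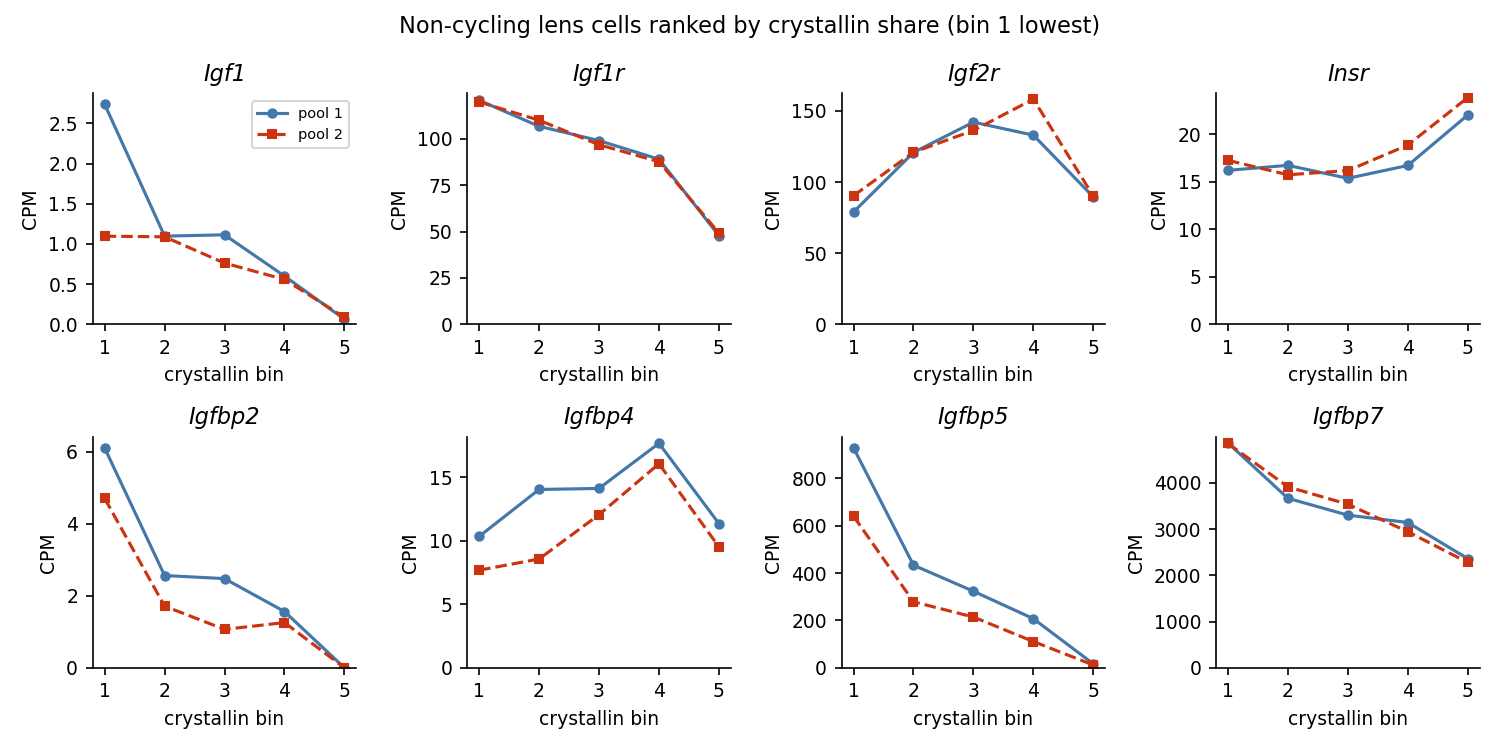
CPM of 8 genes in the 5 crystallin bins of non-cycling lens cells (bin 1 lowest), with pool 1 as circles on a solid line and pool 2 as squares on a dashed line; every axis starts at 0. *Igfbp5*, *Igfbp2*, *Igf1r* and *Igfbp7* are lowest in the highest bin, whereas *Igf2r* and *Igfbp4* peak in bin 3 or 4.

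Cycling lens cells (1888 and 1650, with at least 0.1% of UMIs from 12 proliferation genes) were compared with the mean of the 5 non-cycling bins. *Igf2r* was at 55.5 and 56.6 CPM in cycling cells, below all 5 bins in both pools, and fell by 1.11 on the log2 scale (-1.11 ± 0.06, adjusted p = 2.53e-13, edgeR). *Insr*, at 12.02 and 12.2 CPM, was likewise below every bin (-0.65 ± 0.08, adjusted p = 5.36e-07). *Igfbp7* was slightly lower (-0.21 ± 0.04, adjusted p = 6.86e-05). In total 2 genes were called higher and 3 lower of 7, against 31.4% and 28.7% of all genes.

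The higher calls were small or unstable. *Igf1r* was at 103 and 101 CPM in cycling cells (0.11 ± 0.04, adjusted p = 0.0310), and its log2 fold change was -0.11 (adjusted p = 0.0493) when only the lowest 2 bins were the reference. *Igfbp2* was also called higher, against a mean that includes a bin with no UMI, and against the lowest 2 bins its log2 fold change was -0.77 (adjusted p = 0.0187). *Igfbp5* (211 and 155 CPM, -0.03 ± 0.05, adjusted p = 0.585) was not called, but was lower than in the lowest 2 bins (-1.47, adjusted p = 1.58e-15). *Igfbp4* (14.1 and 12.5 CPM, 0.06 ± 0.09, adjusted p = 0.578) was not called either, but was higher than in the lowest 2 bins (0.43, adjusted p = 0.00397). The reference therefore sets the sign or the call for these 4 genes, while *Igf2r*, *Insr* and *Igfbp7* kept their sign and call with either reference. Near the cutoff, 1294 lens cells had 0.05% to 0.2% of UMIs from the proliferation genes.

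The wider pathway was described with 17 genes for modulators of IGF (such as pappalysins, their stanniocalcin inhibitors, proteases and IGF-2 mRNA-binding proteins) and 28 genes for signaling inside the cell. In endothelial cells 2 modulators were higher and 5 lower than in lens cells of 7 tested, where 30.2% and 32.9% of all genes were called. In mural cells 1 was higher and 5 lower of 7, against 25.1% and 25.2% of all genes. *Stc1*, whose product inhibits the protease that frees IGF from *Igfbp4* protein, was at 45.9 and 53.3 CPM in endothelial cells. It was at 0.383 and 0.227 CPM in lens cells (6.97 ± 0.30 for endothelial against lens), and reached 319 and 389 CPM in mural cells. *Htra1*, a secreted protease that cuts binding proteins, was at 386 and 267 CPM in endothelial, 176 and 180 CPM in lens and 40.9 and 25.2 CPM in mural cells. The mRNA-binding genes *Igf2bp1*, *Igf2bp2* and *Igf2bp3* were all higher in lens cells than in endothelial and mural cells. *Igf2bp1*, for example, was at 66.6 and 51.1 CPM in lens and 2.06 and 4.54 CPM in endothelial cells (-4.62 ± 0.34). *Ide*, the insulin-degrading enzyme, was at 53.2 and 55.2 CPM in lens, 29.5 and 22.7 CPM in endothelial and 8.19 and 3.87 CPM in mural cells.

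Of the 28 signaling genes, 25 were tested among the classes, with 11 higher and 7 lower in endothelial cells (30.2% and 32.9% of all genes) and 10 higher and 4 lower in mural cells (25.1% and 25.2% of all genes) than in lens cells. *Irs2*, an adaptor that links both receptors to PI3-kinase, had 3 endothelial UMIs in all, and its lens level (31.2 and 28.3 CPM) was 23.3 times higher (95% counting interval 7.97 to 113). *Grb10*, an adaptor that restrains both receptors, was at 139 and 157 CPM in endothelial and 43.6 and 40.5 CPM in lens cells (1.505 ± 0.14), and *Inpp5d*, a lipid phosphatase of blood and vessel cells, was at 46.6 and 37.4 CPM in endothelial cells and 139 and 116 CPM in macrophages. Mural cells were higher than lens cells in the PI3-kinase regulatory subunit *Pik3r1*, at 191 and 248 CPM against 32.2 and 31.1 CPM (2.57 ± 0.17). *Grb14*, a relative of *Grb10*, was at 60.03 and 32.9 CPM in mural cells and 0.223 and 0.132 CPM in lens cells. The transcription factor gene *Foxo1* was lower in mural cells (10.9 and 5.80 CPM) than in lens cells (40.3 and 29.7 CPM; -2.34 ± 0.44).

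Between mural and endothelial cells, 3 modulators were higher and 3 lower in mural cells of 7 tested, and 9 signaling genes were higher and 5 lower of 25, where 17.6% and 16.2% of all genes were called. In macrophages, no modulator was called higher and 4 were lower than in lens cells of 7 tested, and 3 signaling genes were higher and 4 lower of 25, against 15.2% and 20% of all genes. *Grb2*, the adaptor that leads to Ras, was at 250.4 and 210.4 CPM in macrophages against 43.0 and 41.2 CPM in lens (2.15 ± 0.31, adjusted p = 3.2e-07).

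Along the crystallin order, 2 modulators were higher and 4 lower in the highest than in the lowest bin of 9 tested, and 8 signaling genes were higher and 10 lower of 26, against 30.7% and 31.7% of all genes. The insulin receptor substrates moved in opposite directions. *Irs1* was at 10.5 and 8.77 CPM in the lowest and 29.3 and 29.6 CPM in the highest bin (2.17 ± 0.13, edgeR), whereas *Irs2* went from 52.5 and 47.5 CPM to 6.47 and 6.55 CPM (-2.38 ± 0.11). *Foxo1* fell from 83.6 and 56.6 CPM to 8.75 and 6.55 CPM (-2.62 ± 0.12), and *Grb10* from 54.9 and 53.7 CPM to 12.2 and 12.3 CPM (-1.58 ± 0.12). *Htra1* (-0.96 ± 0.07) and *Mtor*, the growth kinase (-0.99 ± 0.11), were also lower. *H19*, the imprinted noncoding RNA beside *Igf2*, rose from 10.2 and 11.9 CPM to 31.8 and 36.5 CPM (2.20 ± 0.12), and the kinase gene *Gsk3b* from 158 and 144 CPM to 214 and 206 CPM (1.04 ± 0.06). In cycling cells, 2 modulators were higher and 1 lower of 9 tested, and 12 signaling genes were higher and 6 lower of 26 (31.4% and 28.7% of all genes were called), all of these within 1.05 on the log2 scale, among them *Irs2* (0.56 ± 0.06) and *Grb10* (0.42 ± 0.07).

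Genes with the pattern most like each member were sought by Pearson's r of log2(CPM + 10) over 18 sums (cycling cells, 5 bins and 3 other classes in 2 pools) among 5588 genes, as a description only, since the sums share pools, class differences and carried-over RNA. *Igfbp5* was most like *Gfap* (r = 0.991), *Cpz* and *Abca13*. *Igfbp7* was most like *Armcx2* (r = 0.984), and *Igf1r* most like *Tfdp2* (r = 0.979) and the Notch target *Hes1* (r = 0.956). *Insr* was closest to the endothelial genes *Cd34* (r = 0.984), *Cyyr1* and *Ctla2a*, *Igfbp3* to *Mal* (r = 0.994) and *Kcnj2*, *Igfbp4* to *Mef2c* (r = 0.993), and *Igf1* to *Eps8* (r = 0.997) and the lysosomal protease gene *Lgmn* (r = 0.992). The gene most like *Igf2r* was *Mettl26* (r = 0.955).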

How the data were processed

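The counts are whole UMI counts per gene and barcode, as deposited; per the file headers and the labels the authors made them with Cell Ranger 6.1.1 against mm10, and the 2 matrices hold barcodes already called as cells. Barcodes were kept between the 2nd and 97th percentiles of genes and UMIs, taken over both pools together, and at 15% mitochondrial UMIs or less. These limits kept 11585 of 12314 barcodes in pool 1 and 8517 of 9425 in pool 2, the deeper pool. The 8% with the highest Scrublet score in each pool were then removed as likely doublets (scanpy 1.11.5). Lens cells had at least 1% of UMIs from *Cryaa* and *Cryab* and at most 1 UMI of each endothelial, mural, macrophage and erythroid gate list. Endothelial, mural and macrophage cells had at least 3 UMIs from at least 2 genes of their own list and under 1% crystallin. They had at most 1 UMI of each of the other 2 of these 3 lists and at most 5 UMIs of erythroid genes. Of the kept barcodes, 11.5% and 15.9% met no gate. Most of these (2348 of 2476) had at least 1% crystallin but over 1 UMI of another gate list. The barcodes that met no gate had medians of 6691.5 and 8880 UMIs, against 6166 and 7909 in lens cells.

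UMIs were summed per pool and class. edgeR 4.0.16 (quasi-likelihood, filterByExpr, TMM) was fitted with pool as a block, since every class of a pool comes from the same pups; deviations of classes from 1 pool correlated at 0.0322 to 0.347 among cell classes and 0.572 to 0.813 among lens states. With 2 pools and pool as a block, p-values rest on how differences between classes or lens states vary between the pools. The quasi-likelihood fit shares this spread among all genes tested, so a gene's own variation between the pools enters only in part. The p-values hold no measure of the spread among pups within a pool. On simulated sums, edgeR found 65.5% of 200 changed genes for endothelial against lens (1 false call) and 78% for the highest against the lowest of 5 crystallin bins (5 false calls). Apart from the changed genes, these sums had the same mean profile in every class, with a fixed dispersion and no pool effect. Far more genes were called in the data, so the simulation gives no error rate for them. Each pool held 93839132 or 86033032 UMIs; counting intervals are exact (95%). Alternatives were DESeq2 1.42.0, other filters, gates, cutoffs, scaling and depth. All 10 genes are named; of the pathway lists, up to 5 of the largest called changes each way with the same sign in both pools and at least 20 CPM, and the 3 most alike genes of members reaching 50 CPM. The genes and lists were chosen with earlier results of these data known. Promoter sequences are from RefSeq (GRCm38.p6), with 9 of 10 genes matched (not *Insr*), and gene positions are from GENCODE on mm10. One result is not reported here.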

Additional observations from a re-analysis of the deposited data

How the results depend on the processing

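Of 524 recomputed log2 fold changes of the 10 genes over 13 alternatives, 502 kept their direction and their side of the threshold, 15 were no longer called, 4 were newly called and 3 changed direction. The ones that changed direction were *Igfbp4* between the highest and lowest of 10 crystallin bins (-0.0023, adjusted p = 0.996) and, in cycling cells against the lowest 2 of 5 bins, *Igf1r* (-0.11, adjusted p = 0.0493) and *Igfbp2* (-0.77, adjusted p = 0.0187). With DESeq2, 48 of 50 fold changes kept their direction and side of the threshold, and 2, both in cycling cells, were no longer called. Without the pool block, edgeR no longer called *Igf1r* in cycling cells (0.11, adjusted p = 0.161), and no other call on the 10 genes changed. Leaving out TMM scaling and leaving *Esam* out of the endothelial gate were chosen after seeing the data. Without scaling, 13.3% of called genes were higher in the highest crystallin bin against 49.2% with it, 63.5% against 47.8% for endothelial against lens, 62.3% against 49.9% for mural against lens, 56.5% against 43.3% for macrophage against lens and 65.3% against 52.2% for cycling cells. Leaving out either pool leaves 1 sum per class and no test; the 78 fold changes so recomputed for called genes all kept their direction. Depth limits the ligands, *Igfbp2* and all macrophage values, which rest on few UMIs.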

Other observations

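Among the barcodes that met no gate, 2348 had at least 1% crystallin and over 1 UMI of another gate list. The other 128 had under 1% crystallin, and 110 of these had more than 1 UMI from both the endothelial and the mural gate lists. Their leading gate genes were mural, with *Rgs5* at 13915 and 14033 CPM in the 58 and 70 barcodes of the pools and *Cldn5* at 190 and 215 CPM, and *Esam* from the endothelial list stood at 514 and 522 CPM. In these barcodes *Igf1* was at 46.3 and 25.03 CPM (10 and 7 UMIs), *Igf2* at 9.27 and 28.6 CPM, *Igf2r* at 176 and 200.3 CPM and *Igfbp4* at 412 and 436 CPM. With *Esam* left out of the endothelial gate, mural cells numbered 161 and 212, and every call on the 10 genes between cell classes stayed on its side of the threshold.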
